A study of Mus musculus with 6 samples.

Results

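The TGF-beta pathway was followed here through 10 genes in basal epidermal cells of mouse embryos: the ligand genes Tgfb1, Tgfb2 and Tgfb3, the receptor genes Tgfbr1, Tgfbr2 and Tgfbr3, the latent complex gene Ltbp1, and Smad7, Skil and Tgfbi, which the pathway itself induces. They were taken by symbol from the 24354 genes of the deposited expression table, and all 10 were measured. RNA was sequenced from cells sorted for high surface α6 integrin shortly before birth (E18.5). The 3 mutant libraries came from embryos homozygous for Pik3ca H1047R, an activating variant of the catalytic subunit of phosphoinositide 3-kinase, and the other 3 came from wild-type (WT) embryos. All carry the strain label C57BL6. The sources used here do not give what drives expression of the mutant allele, or whether a group's 3 libraries are separate animals, so p-values measure the spread between these libraries, which may be technical in part. Xist, made from the inactive X chromosome of females, was at 0.733, 0.0542 and 71.1 FPKM in mutant libraries, against 30.5, 24.2 and 0.530 FPKM in WT libraries, so both groups mix libraries with and without it, in unequal numbers.

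TGF-beta is secreted in a latent form, held by its own propeptide and by a latent TGF-beta binding protein that tethers it to the matrix. Once freed, it binds the type II receptor encoded by Tgfbr2, which joins and activates the type I receptor encoded by Tgfbr1, and the pair phosphorylates SMAD proteins that enter the nucleus with the Smad4 product. In the epidermis the pathway is known for holding back keratinocyte division.

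Levels are FPKM, fragments per kilobase of transcript scaled to a library total, as the authors deposited them. Summed FPKM lay between 538627 and 651769 in mutant libraries and between 656761 and 767148 in WT libraries, and between 11242 and 11351 genes reached 1 FPKM in a library. Read totals are unknown. From values under 1 FPKM, the estimated depth relative to WT replicate 1 lay between 1.10 and 1.25 in mutant libraries and between 0.986 and 1.15 in the other WT libraries. The deposited interval spanned, at the median, 34.8% to 35.2% of a value on each side. Pik3ca itself was at 7.15, 6.81 and 5.98 FPKM in mutant libraries, against 8.70, 8.92 and 9.50 FPKM in WT libraries; this level does not show whether the variant is present. Keratinocyte genes were abundant, as the sort label has it: the 8 basal keratinocyte markers summed to between 23766 and 27179 FPKM in mutant libraries and between 25924 and 26262 FPKM in WT libraries, sums set almost wholly by keratin genes. Of the 8, Krt15 was higher by limma. Itga6, Itgb4, Col17a1 and Dst, which encode parts of the anchorage to the basement membrane, were lower by limma. That is 1 higher and 4 lower of 8, where 23.2% of all genes tested were higher and 22.8% lower. Itga6, the gene of the sort marker, lay between 121 and 125 FPKM in mutant libraries and between 157 and 172 FPKM in WT libraries. The part of this difference in the results below was not tested. The keratin gene of the next layer, Krt10, lay between 5266 and 6649 FPKM in mutant libraries and between 1451 and 1866 FPKM in WT libraries, so this keratin moved with genotype; the part of cell layer makeup in the results below was not tested.

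Of the 10 genes, 3 rose in mutant libraries (Tgfb2, Ltbp1 and Tgfb3), 5 fell (Tgfbr2, Skil, Smad7, Tgfbi and Tgfb1) and 2 did not pass the test (Tgfbr1 and Tgfbr3), by limma's moderated test at a Benjamini-Hochberg adjusted p under 0.05. Many genes changed in this comparison, and the members are to be read against that: of 11385 genes tested, 46.0% changed, with 23.2% higher and 22.8% lower. The mutant and WT libraries did not overlap for 8 of the 10 genes, against 56.0% of all genes tested. With Xist as a covariate, again 3 of the 10 were higher and 5 lower, where 27.4% of all genes tested were higher and 26.4% lower. The median log2 fold change of the 10 genes was -0.21, against 0.01 for all genes tested. Log2 fold changes were taken from log2(FPKM + 1) as mutant minus WT, a scale that shrinks the change of weakly expressed genes. In sorted bulk samples, fewer cells of a type and less RNA per cell cannot be told apart.

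**Figure D1:**
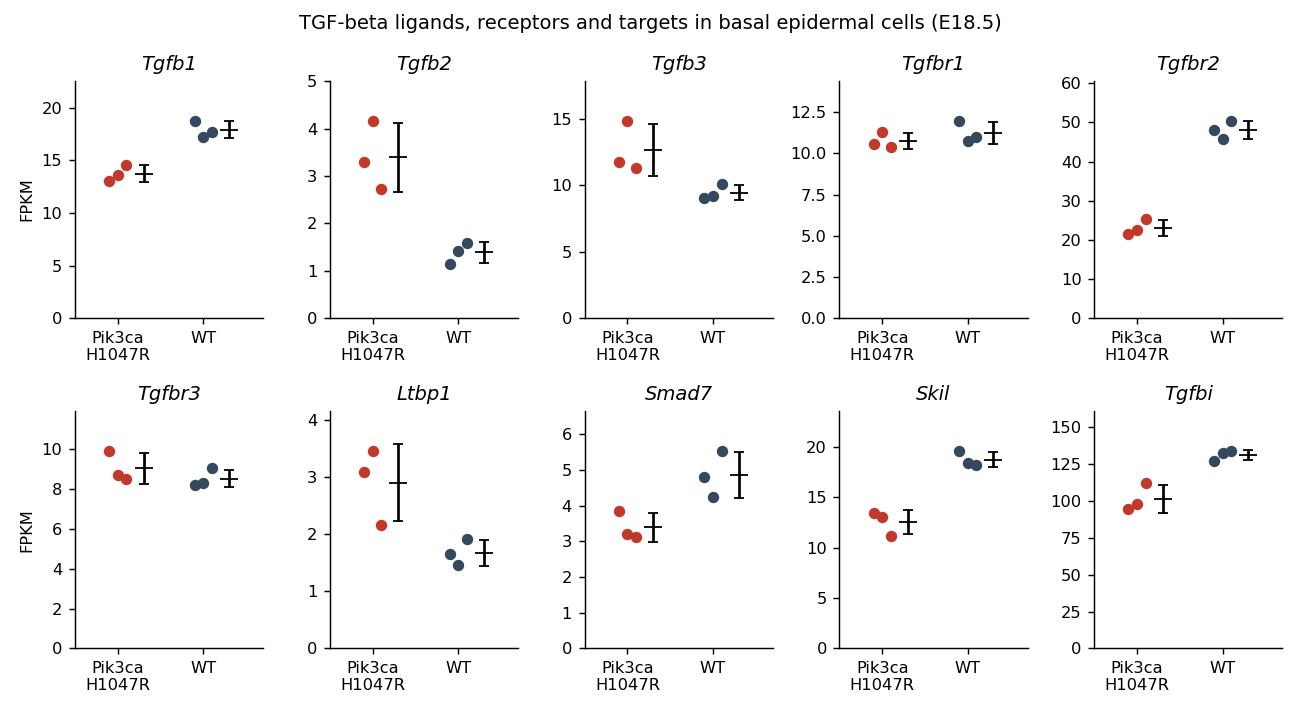
Level of each of the 10 genes in FPKM (linear axes from 0), with 1 point per library and the mean with SD (n = 3) beside the points, mutant left of WT. The groups overlap for Tgfbr1 and Tgfbr3 and for no other of the 10 genes; the widest separation is that of Tgfbr2, with 21.5 to 25.4 FPKM in mutant libraries against 45.8 to 50.5 FPKM in WT libraries.

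Among the ligands, Tgfb2 rose, Tgfb3 rose less and Tgfb1 fell. Tgfb2 (chromosome 1, 186623186 to 186705992, minus strand, GRCm38) was at 3.30, 4.17 and 2.72 FPKM in mutant libraries, against 1.14, 1.43 and 1.60 FPKM in WT libraries. Every mutant value lay above every WT value, and the ratio of means was 2.45 (log2 fold change 0.87, SE 0.137, limma adjusted p = 0.00163). Only 1.02% of genes tested rose by 2-fold or more on the log2(FPKM + 1) scale, and Tgfb2, at 0.87 on that scale, lay above 98.3% of genes tested. The product of Tgfb2 binds the type II receptor weakly without the co-receptor that Tgfbr3 encodes.

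Tgfb3 (chromosome 12, 86056743 to 86079041, minus strand) was at 11.7, 14.9 and 11.3 FPKM in mutant libraries, against 9.04, 9.21 and 10.1 FPKM in WT libraries (log2 fold change 0.38, SE 0.102, limma adjusted p = 0.0186). Mutant replicate 2 stood highest and the groups did not overlap. The call is a narrow one: it ended without WT replicate 1 (limma adjusted p = 0.0579) and without WT replicate 2 (limma adjusted p = 0.0553). Exons of Tgfb2 and of Tgfb3 overlap annotated transcripts on the other strand (Gm29491 for Tgfb2, Gm37804 and Gm48008 for Tgfb3), and the sources used here do not say whether the libraries keep the strand.

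Tgfb1 (chromosome 7, 25687002 to 25704996, plus strand), the most abundant ligand gene in WT cells, was at 13.0, 13.6 and 14.6 FPKM in mutant libraries, against 18.8, 17.2 and 17.7 FPKM in WT libraries. All mutant values lay below all WT values (log2 fold change -0.36, SE 0.0648, limma adjusted p = 0.00311). With libraries scaled to the same total FPKM, the log2 fold change was -0.047 and the call ended (limma adjusted p = 0.714).

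The summed level of the ligands overlapped between genotypes, while their makeup did not. Tgfb1, Tgfb2 and Tgfb3 summed to 28.1, 32.6 and 28.6 FPKM in mutant libraries, against 29.0, 27.8 and 29.4 FPKM in WT libraries, and these ranges overlapped. Tgfb1 made up 46.5%, 41.6% and 51.1% of that sum in mutant libraries, against 64.9%, 61.8% and 60.3% in WT libraries. Tgfb2 made up 11.7%, 12.8% and 9.52% in mutant libraries, against 3.93%, 5.13% and 5.43% in WT libraries. Tgfb3 made up 42.3% ± 3.10 in mutant libraries and 32.9% ± 1.55 in WT libraries (SD, n = 3 each). Tgfb1 was thus 1.11 ± 0.191 times the level of Tgfb3 in mutant libraries and 1.90 ± 0.162 times in WT libraries (SD, n = 3 each). Shares within a library do not depend on how libraries are scaled to each other. They show unequal change among the ligands, and no test was made of them.

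**Figure D2:**
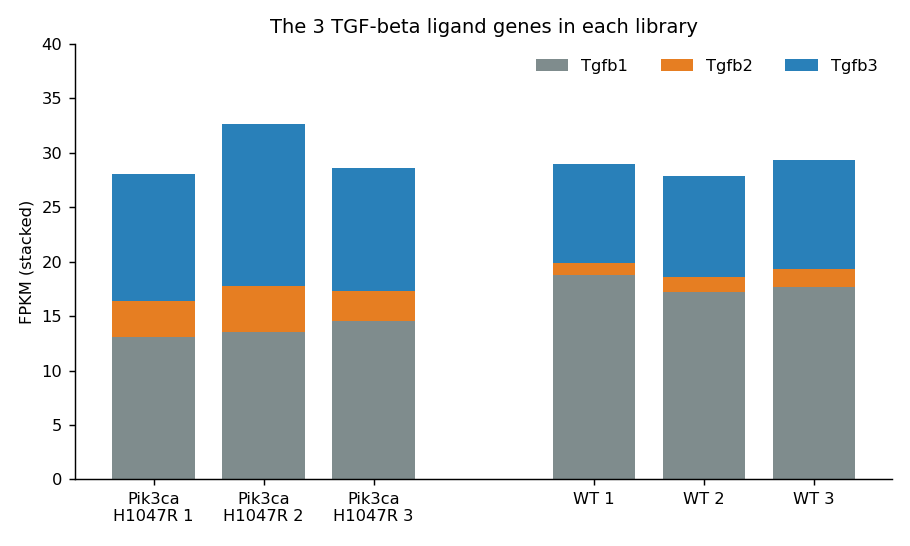
FPKM of Tgfb1 (grey), Tgfb2 (orange) and Tgfb3 (blue) stacked for each library, the 3 mutant libraries left of the 3 WT libraries. Total heights overlap between the groups (28.1 to 32.6 FPKM in mutant libraries, 27.8 to 29.4 FPKM in WT libraries), while the grey part is shorter and the orange part taller in every mutant library.

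The promoters of the ligand genes that moved in opposite directions, and of the receptor gene that fell most, are printed so that the differences in their start regions can be seen. Each is the RefSeq stretch from 250 bases before to 50 bases after the annotated start on GRCm38.p6, written 5′ to 3′ on the strand of the gene; capitals mark every match to the motifs searched. Tgfb1 is chr7:25686752-25687051 (plus strand), Tgfb2 is chr1:186705940-186706239 (minus strand) and Tgfbr2 is chr9:116175314-116175613 (minus strand).
Tgfb1: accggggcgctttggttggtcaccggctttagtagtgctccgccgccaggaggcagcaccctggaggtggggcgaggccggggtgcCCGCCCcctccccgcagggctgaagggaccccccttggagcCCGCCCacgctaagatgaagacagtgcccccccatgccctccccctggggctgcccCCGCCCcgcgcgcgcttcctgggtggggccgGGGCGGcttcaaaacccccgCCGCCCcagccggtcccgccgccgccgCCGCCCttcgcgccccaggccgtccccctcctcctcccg
Tgfb2: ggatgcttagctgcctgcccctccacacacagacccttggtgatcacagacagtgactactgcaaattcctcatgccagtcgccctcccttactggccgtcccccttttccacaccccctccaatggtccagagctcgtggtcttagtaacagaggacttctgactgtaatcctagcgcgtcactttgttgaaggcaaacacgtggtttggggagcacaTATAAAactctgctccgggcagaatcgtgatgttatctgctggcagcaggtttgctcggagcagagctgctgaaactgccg
Tgfbr2: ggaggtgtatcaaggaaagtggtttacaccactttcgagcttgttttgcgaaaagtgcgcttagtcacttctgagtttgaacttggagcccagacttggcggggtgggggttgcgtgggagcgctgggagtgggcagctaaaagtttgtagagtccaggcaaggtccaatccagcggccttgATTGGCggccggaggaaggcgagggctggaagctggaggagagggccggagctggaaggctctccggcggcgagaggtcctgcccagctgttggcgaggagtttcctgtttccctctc

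Motifs were searched on both strands as plain letters: the GC box GGGCGG, the TATA box TATAAA, the NF-Y box ATTGGC, the cyclic AMP element TGACGTCA, the AP-1 site TGANTCA, the SMAD palindrome GTCTAGAC, the SMAD half-site repeat CAGACAGA, the TEAD site GGAATG and the forkhead site GTAAACA. The Tgfb1 promoter was 77.0% G and C and held 6 GC boxes, none overlapping another; at least 1 GC box was in 35.6% of the 32817 promoters of this length, and 6 or more were in 1.35%. The Tgfb2 promoter was 54.3% G and C and held no GC box; its single match was a TATA box whose first base lay at position -31 from the start, and 13.6% of promoters held that motif. The Tgfbr2 promoter was 59.0% G and C, and its single match was an NF-Y box at position -68, a motif in 14.7% of promoters. Among promoters searched but not shown, those of Tgfbr1, which was not called, and of Ltbp1, which rose, also held an NF-Y box. That Ltbp1 promoter held a cyclic AMP element as well, and promoters of Tgfbr1 and Tgfbi held GC boxes. The median promoter of the table was 52.7% G and C. The cyclic AMP element, the AP-1 site, either SMAD motif, the TEAD site and the forkhead site had no match in the 3 windows shown; they occur in 1.79%, 7.81%, 0.213%, 2.54%, 14.7% and 3.65% of promoters, in that order. A match is only a run of letters, and factor binding was not measured here.

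Of the receptors, Tgfbr2 fell to under 0.5 times its WT level, while Tgfbr1 and Tgfbr3 did not pass the test. Tgfbr2 (chromosome 9, 116087695 to 116175363, minus strand), which encodes the ligand-binding type II kinase, was at 21.5, 22.4 and 25.4 FPKM in mutant libraries, against 48.1, 45.8 and 50.5 FPKM in WT libraries. The highest mutant value lay far below the lowest WT value, and the ratio of means was 0.480 (log2 fold change -1.03, SE 0.0752, limma adjusted p = 3.96e-05). A decrease of 2-fold or more on this scale was called in 2.49% of genes tested. The call held in all 19 alternatives, with log2 fold changes between -1.10 and -0.67. By an exact permutation test (two-sided), p was 0.1, the lowest value that 3 libraries against 3 can reach, and it was the same for each of the 8 genes whose groups did not overlap.

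Tgfbr1 (chromosome 4, 47353305 to 47414924, plus strand), the type I kinase that signals to SMADs, was at 10.6, 11.3 and 10.4 FPKM in mutant libraries, against 12.0, 10.8 and 11.0 FPKM in WT libraries. These ranges overlapped (log2 fold change -0.06, SE 0.0658, limma adjusted p = 0.488), and the sign of Tgfbr1 turned, with a call, under scaling to equal totals that leave out small RNA genes (0.276, limma adjusted p = 0.034). Tgfbr3 (chromosome 5, 107106570 to 107289595, minus strand), which encodes the co-receptor betaglycan, was at 9.92, 8.70 and 8.51 FPKM in mutant libraries, against 8.22, 8.32 and 9.04 FPKM in WT libraries (log2 fold change 0.07, SE 0.0752, limma adjusted p = 0.445), and was called higher under the same scaling (0.403, limma adjusted p = 0.0206). Again the groups overlapped. Exons of Tgfbr3 share 297 bases with Gm43422, an annotated transcript on the same strand. A p that misses the threshold does not show equal levels.

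The ratios between receptor genes lay apart between the mutant and WT libraries. Tgfbr2 was at 2.03, 1.99 and 2.45 times the FPKM of Tgfbr1 in mutant libraries, against 4.01, 4.26 and 4.60 times in WT libraries. Tgfbr3 was at 0.395 ± 0.0634 times the FPKM of Tgfbr2 in mutant libraries and at 0.177 ± 0.00565 times in WT libraries (SD, n = 3 each). Neither ratio overlapped between the groups, and neither depends on library scaling. No test was made of these ratios. For single genes, the groups did not overlap in 56.0% of all genes tested.

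Ltbp1 rose, and the 3 genes that the pathway induces fell. Ltbp1 (chromosome 17, 75005529 to 75392967, plus strand), whose product holds latent ligand in the matrix, was at 3.09, 3.46 and 2.15 FPKM in mutant libraries, against 1.65, 1.46 and 1.91 FPKM in WT libraries. The groups did not overlap, though mutant replicate 3 lay close to WT replicate 3 (ratio of means 1.73, log2 fold change 0.53, SE 0.140, limma adjusted p = 0.0163). The call ended without mutant replicate 1 (limma adjusted p = 0.0509), without mutant replicate 2 (0.0603) and without WT replicate 2 (0.0519).

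Skil (chromosome 3, 31095058 to 31122923, plus strand) encodes SnoN, a corepressor that binds SMADs and whose gene they induce. It was at 13.4, 13.0 and 11.2 FPKM in mutant libraries, against 19.6, 18.45 and 18.2 FPKM in WT libraries. All mutant values were lower (ratio of means 0.669, log2 fold change -0.55, SE 0.0767, limma adjusted p = 0.000959).

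Smad7 (chromosome 18, 75367365 to 75395934, plus strand) encodes the inhibitory SMAD that blocks the type I receptor. It was at 3.86, 3.19 and 3.13 FPKM in mutant libraries, against 4.80, 4.25 and 5.54 FPKM in WT libraries. The groups did not overlap (ratio of means 0.699, log2 fold change -0.41, SE 0.106, limma adjusted p = 0.0146), and the call ended without mutant replicate 2 (limma adjusted p = 0.0545).

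Tgfbi (chromosome 13, 56609603 to 56639339, plus strand), a secreted matrix protein gene first found as induced by TGF-beta, was the most abundant of the 10 in every library. It was at 94.3, 97.5 and 112 FPKM in mutant libraries, against 127, 132 and 134 FPKM in WT libraries (ratio of means 0.772, log2 fold change -0.37, SE 0.0776, limma adjusted p = 0.00576). The groups did not overlap. Under quantile normalization the call ended (log2 fold change -0.146, limma adjusted p = 0.0903).

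The order of levels shifted in its middle and lower part. In WT libraries, Tgfbi was followed by Tgfbr2, Skil, Tgfb1, Tgfbr1, Tgfb3, Tgfbr3, Smad7, Ltbp1 and Tgfb2, and only Skil with Tgfb1 and Ltbp1 with Tgfb2 overlapped as neighbours. In mutant libraries, Tgfbi and Tgfbr2 again led, and Tgfb1, Tgfb3, Skil and Tgfbr1 followed as a run in which each overlapped the next. Tgfbr3 came after them, apart from both neighbours, and Tgfb2, Smad7 and Ltbp1 overlapped at the low end.

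Precision within a library was limited for all of these genes. The deposited intervals reached between 31.5% and 49.1% of the value on each side, widest for Tgfb2. Of the 9 pairings of a mutant with a WT library, the intervals overlapped in 3 for Tgfbr2, in 4 for Tgfb2, in 6 for Ltbp1 and in all 9 for each of the other 7 genes. The calls for Tgfb1, Tgfb3, Smad7, Skil and Tgfbi thus rest on the agreement between replicates rather than on the interval of any single value.

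Scaling to equal totals ended 4 of the 8 calls, whereas median of ratios scaling, which lines libraries up at the median gene, kept all 8. Under the latter the limma adjusted p was 0.00252 for Tgfb1, 0.0155 for Smad7, 0.00112 for Skil and 0.00377 for Tgfbi. Quantile normalization ended the call of Tgfbi alone. Which scaling is right is not known here. When every library was scaled to one total FPKM, the median gene moved up by 0.29 in log2 fold change, which turned the split of calls over all genes to 86.5% higher, against 50.5% with values as deposited. Under that scaling Tgfb2 (log2 fold change 1.10), Ltbp1 (0.762), Tgfb3 (0.679) and Tgfbr2 (-0.708) kept their calls. Tgfb1, Smad7, Skil and Tgfbi kept a negative sign but lost theirs (limma adjusted p = 0.714, 0.470, 0.182 and 0.660). Relative to the median gene under that scaling, Tgfbr2 was at -1.01, Skil at -0.54, Smad7 at -0.45, Tgfb1 and Tgfbi at -0.35, Tgfb3 at 0.38, Ltbp1 at 0.46 and Tgfb2 at 0.80.

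**Figure D3:**
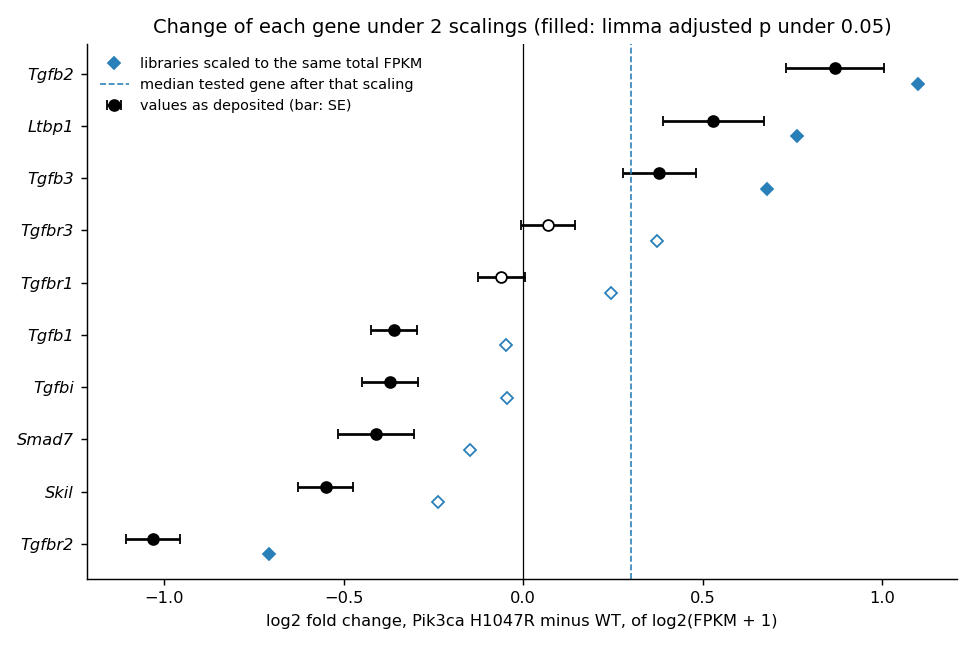
Log2 fold change (mutant minus WT, of log2(FPKM + 1)) of each gene with the values as deposited (black circles, bars are SE) and with libraries scaled to the same total FPKM (blue diamonds); filled symbols have a limma adjusted p under 0.05, and the dashed line is the median tested gene after that scaling. Tgfb2, Ltbp1, Tgfb3 and Tgfbr2 are filled under both, whereas Tgfb1, Tgfbi, Smad7 and Skil are filled only with the values as deposited.

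Around these 10 genes, 87 further genes of the pathway were listed in 6 groups by role, and 72 of them passed the filter of a mean of 1 FPKM. Of the 72, 34 fell (47.2%, against 22.8% of all genes tested) and 9 rose (12.5%, against 23.2%), with a median log2 fold change of -0.27 against 0.01 for all genes tested. With libraries scaled to the same total, 17 fell and 16 rose, where 7.35% of all genes tested fell and 47.3% rose. By role under that scaling, 2 storage genes fell and 0 rose, 5 co-receptor genes rose and 0 fell, 2 SMAD and nuclear partner genes rose and 1 fell, 10 induced genes fell and 6 rose, and 2 repressed genes fell and 2 rose. Several of these genes also answer to other pathways, exons of Itgav, Thbs1, Tgfbrap1, Nedd4l and Tnc overlap noncoding transcripts on the other strand, and the lists were drawn up with earlier results of these data known.

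Beside Ltbp1, which rose, 11 genes that store or free latent ligand were tested. Of these, 6 fell (54.5%, against 22.8% of all genes tested) and 0 rose by limma (against 23.2%). Also at an unadjusted p under 0.05, 0 rose, and the median was -0.45. The integrin subunit gene Itgb6, whose product pairs with that of Itgav to free the Tgfb1 and Tgfb3 products from their propeptides, was at 4.02, 4.96 and 5.85 FPKM in mutant libraries, against 44.8, 39.4 and 41.4 FPKM in WT libraries. That is 0.118 times the WT mean (log2 fold change -2.86, SE 0.112, limma adjusted p = 3.89e-06). Its partner Itgav fell to 7.84 ± 0.394 FPKM in mutant libraries, against 11.1 ± 0.742 FPKM in WT libraries (SD, n = 3 each; limma adjusted p = 0.00156), a call that ended with libraries scaled to the same total (limma adjusted p = 0.393). The propeptide made from Tgfb2 lacks the integrin-binding motif that the others carry.

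Thbs1, a matrix protein gene whose product can release latent TGF-beta, was at 362, 429 and 524 FPKM in mutant libraries, against 1153, 1110.0 and 1319.7 FPKM in WT libraries (log2 fold change -1.46, limma adjusted p = 0.000179). Ltbp4, a relative of Ltbp1, fell to 45.7 ± 3.78 FPKM in mutant libraries, against 76.6 ± 8.29 FPKM in WT libraries (SD, n = 3 each; limma adjusted p = 0.000593), and Ltbp3, picked with its values known, fell as well (log2 fold change -0.59, limma adjusted p = 0.00255). Ltbp4 missed the threshold with libraries scaled to the same total (limma adjusted p = 0.0519). The call of Ltbp3 also ended with libraries scaled to the same total (limma adjusted p = 0.203). The integrin subunit gene Itgb8, also picked with its values known, was at 1.57 ± 0.370 FPKM in mutant libraries and 1.57 ± 0.0923 FPKM in WT libraries (SD, n = 3 each).

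Among co-receptors and receptor partners, 2 of 8 tested rose and 2 fell (median -0.06). Each is 25.0%, near the 23.2% higher and 22.8% lower of all genes tested. Tgfbrap1, which encodes a receptor-associated adaptor, rose to 8.51 ± 0.229 FPKM in mutant libraries, against 5.64 ± 0.264 FPKM in WT libraries (SD, n = 3 each; limma adjusted p = 0.000474). Nrp1, a co-receptor for several ligands, rose to 5.89 ± 0.658 FPKM in mutant libraries, against 4.47 ± 0.168 FPKM in WT libraries (limma adjusted p = 0.0151), and that call ended without mutant replicate 1 (limma adjusted p = 0.0537). The decoy receptor gene Bambi was low, at 0.779 ± 0.0725 FPKM in mutant libraries and 1.26 ± 0.0109 FPKM in WT libraries (limma adjusted p = 0.0204), and missed the threshold with the replicate number as a block (limma adjusted p = 0.0615), without mutant replicate 2 (0.0631) and with libraries scaled to the same total (0.232). Zfyve9, which encodes a protein that brings SMADs to the receptor, fell by 0.20 on the log2 scale (limma adjusted p = 0.0263); its sign turned with libraries scaled to the same total (0.115, limma adjusted p = 0.404). The call of Zfyve9 also ended with the replicate block (limma adjusted p = 0.0784) and without mutant replicate 1 (0.0874), mutant replicate 2 (0.0763), WT replicate 2 (0.101) or WT replicate 3 (0.0607), and its exons overlap those of 3110021N24Rik on the other strand.

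Of the SMADs and their nuclear partners, 0 of 9 tested rose by limma, against 23.2% of all genes tested. At an unadjusted p under 0.05, also 0 rose. By limma, 1 of the 9 fell (11.1%, against 22.8% of all genes tested). That gene was Smad4, the shared partner of the signalling SMADs, at 34.3, 37.1 and 36.7 FPKM in mutant libraries, against 65.6, 63.4 and 62.4 FPKM in WT libraries (ratio of means 0.565, log2 fold change -0.81, SE 0.0575, limma adjusted p = 3.53e-05). The groups lay far apart, and the call held in all 19 alternatives. Smad3 was at 15.6 ± 0.618 FPKM in mutant libraries and 16.8 ± 1.12 FPKM in WT libraries (SD, n = 3 each; limma adjusted p = 0.267), and Smad2, picked with its values known, was at 9.47 ± 0.275 FPKM in mutant libraries and 9.77 ± 0.629 FPKM in WT libraries (SD, n = 3 each; limma adjusted p = 0.652). Sp1, a general transcription factor that works with SMADs, was at 33.3 ± 1.75 FPKM in mutant libraries and 34.0 ± 1.21 FPKM in WT libraries (SD, n = 3 each; limma adjusted p = 0.714), and the ubiquitin ligase gene Rnf111, whose product clears pathway inhibitors, was at 13.1 ± 1.41 FPKM in mutant libraries and 14.5 ± 0.989 FPKM in WT libraries (limma adjusted p = 0.225). With Xist as a covariate, 3 of the 9 fell, Rnf111 among them (log2 fold change -0.184, limma adjusted p = 0.0138), and with library weights 3 of the 9 rose, where 31.1% of all genes tested were higher and 31.1% lower. Smad4 serves the BMP branch as well as the TGF-beta branch.

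Of 10 pathway inhibitors tested, 7 fell and 1 rose (median -0.29), which is the direction of Skil and Smad7. The corepressor gene Tgif1 was at 88.0, 89.4 and 102 FPKM in mutant libraries, against 234, 211 and 217 FPKM in WT libraries (log2 fold change -1.24, SE 0.0791, limma adjusted p = 2.29e-05). The ubiquitin ligase genes Nedd4l and Smurf1, whose products act on receptors and SMADs, fell, with log2 fold changes of -0.64 and -0.65 (limma adjusted p = 0.000199 and 0.000337), and the SMAD phosphatase gene Ppm1a fell by 0.36 (limma adjusted p = 0.0033). Wwp1, another ubiquitin ligase gene and the single member that rose (named for that), was at 7.65 ± 0.133 FPKM in mutant libraries and 5.97 ± 0.224 FPKM in WT libraries (SD, n = 3 each; limma adjusted p = 0.00432). With libraries scaled to the same total, 2 inhibitors fell and 1 rose, where 7.35% of all genes tested fell and 47.3% rose. Tgif1 and Nedd4l kept their calls.

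Of 28 tested genes known to be induced by TGF-beta, 15 fell and 4 rose (median -0.42). That is 53.6% lower and 14.3% higher, against 22.8% and 23.2% of all genes tested. Tenascin C (Tnc) was at 20.1, 19.6 and 18.2 FPKM in mutant libraries, against 145, 133 and 153 FPKM in WT libraries (log2 fold change -2.84, limma adjusted p = 5.71e-07). The fibronectin receptor subunit Itga5 (log2 fold change -2.26) and the actin-binding genes Tpm1 (-2.35) and Tagln (-3.04) fell too, and the value of Tagln is uncertain, as it shares exon bases with Pcsk7 on the opposite strand. The 4 that rose, named because they were few, were the growth factor gene Pdgfb (log2 fold change 0.88), Tsc22d1 (0.82), the parathyroid hormone related gene Pthlh (0.57) and the cell cycle inhibitor gene Cdkn2b (0.45). Tsc22d1 was at 279.8, 284 and 297 FPKM in mutant libraries, against 166, 169 and 151 FPKM in WT libraries. Fibronectin (Fn1), picked with its values known, was at 58.6 ± 6.64 FPKM in mutant libraries and 59.5 ± 4.66 FPKM in WT libraries (SD, n = 3 each; limma adjusted p = 0.844).

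Of 6 genes known to be repressed by TGF-beta in epithelial cells, 3 fell and 2 rose. Of all genes tested, 22.8% fell and 23.2% rose. The helix-loop-helix inhibitor gene Id2 was at 11.7 ± 0.753 FPKM in mutant libraries and 25.9 ± 3.50 FPKM in WT libraries (SD, n = 3 each; limma adjusted p = 0.00011), and Id3 fell by 0.55 on the log2 scale (limma adjusted p = 0.00446), a call that ended under quantile normalization (limma adjusted p = 0.127). Both are also BMP targets. The cell cycle genes Ccna2 and Cdc25a rose, with log2 fold changes of 0.42 and 0.34 (limma adjusted p = 0.00221 and 0.00718). Exons of Ccna2 overlap those of Exosc9 on the other strand.

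**Figure D4:**
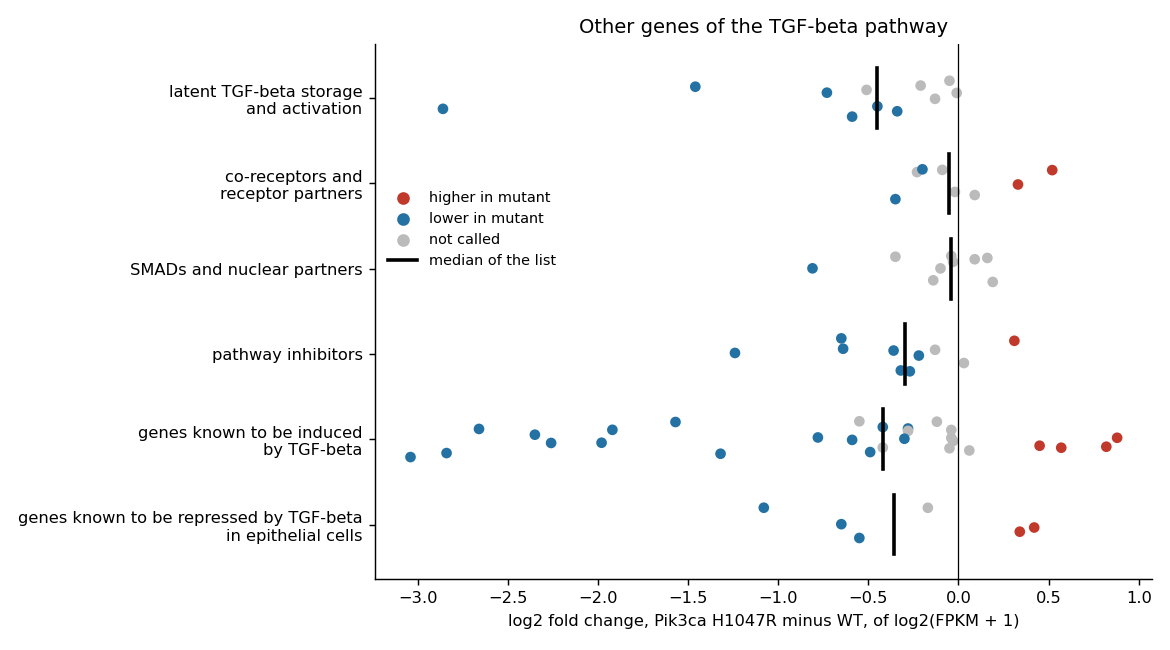
Log2 fold change (mutant minus WT, of log2(FPKM + 1)) of the 72 tested pathway genes beside the 10 described first, in 6 lists; each point is a gene, red where called higher, blue where called lower and grey where not called, and the black bar is the median of the list. Medians lie between -0.45 (storage and activation) and -0.04 (SMADs and nuclear partners), and Tagln and Itgb6 lie farthest to the left.

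Genes of other cell types moved beside these values. The 13 dermal fibroblast markers summed to between 924 and 951 FPKM in mutant libraries and between 1159.6 and 1334 FPKM in WT libraries, and of 12 tested 5 were lower and 0 higher by limma (also 0 at an unadjusted p under 0.05). Of the 12 tested, 41.7% were lower, against 22.8% of all genes tested, of which 23.2% were higher. Postn, Dcn and Sparc made up most of the fibroblast sums. The groups did not overlap for Dcn and Sparc, but did for Postn, Col1a1, Col1a2 and Col3a1. Pdgfra, a defining fibroblast receptor, lay between 0.284 and 0.549 FPKM in mutant libraries and between 0.356 and 0.828 FPKM in WT libraries. Fibroblasts express many of the same genes, and Col1a1 stands in both the induced list and the fibroblast list. Endothelial and mural markers were scarce, with sums between 1.09 and 2.98 FPKM in mutant libraries and between 1.90 and 4.59 FPKM in WT libraries over 8 genes, none reaching the filter. The 8 immune markers summed to between 8.11 and 8.87 FPKM in mutant libraries and between 9.95 and 12.5 FPKM in WT libraries, with Ptprc, Cd207 and Cd3e under 0.1 FPKM in every library. Skeletal muscle markers (10.3 to 11.4 FPKM in mutant and 15.1 to 26.1 FPKM in WT libraries), melanocyte and Schwann cell markers (11.2 to 15.3 FPKM in mutant and 16.2 to 21.6 FPKM in WT libraries) and erythroid markers (90.2 to 157 FPKM in mutant and 230.4 to 313 FPKM in WT libraries) had lower sums too, with no overlap between groups. Their part in the results was not tested.

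The genes whose pattern over the 6 libraries was most like that of Tgfbr2 were Vgll3 (Pearson's r of log2(FPKM + 1) 0.999), Errfi1 (0.998) and Srf (0.998), out of 8218 genes compared. Srf, a transcription factor of actin and immediate early genes, was at 61.5, 68.9 and 73.2 FPKM in mutant libraries, against 173, 164 and 185 FPKM in WT libraries. Those most like Tgfb2 were P2ry1 (0.999), Zfp507 (0.998) and Akap8 (0.998). P2ry1 was at 6.70, 7.69 and 6.08 FPKM in mutant libraries, against 3.87, 4.28 and 4.63 FPKM in WT libraries. With 2 groups of 3 libraries, the difference between groups sets most of such a correlation, and 147 genes for Tgfbr2 and 22 for Tgfb2 had r over 0.99, so the ranking is a description only.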

How the data were processed

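RNA from 3 mutant and 3 WT samples of sorted basal cells was sequenced; RNA came from a column kit and libraries from standard Illumina protocols, per the labels' protocols. The authors deposited FPKM values, each with an interval and a status flag, made with TopHat and Cufflinks, per the submitters' processing notes; the sources used here give no versions and no account of library scaling in that step. The notes name mm9, but of 23315 symbols found in GENCODE M21 (GRCm38), 98.9% overlapped the gene of that name, so positions are read as GRCm38, with 1 added to each start. Of all values, 1 had a status other than OK; it is not of a gene named here. FPKM are not counts, so no count test was run.

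The 11385 genes averaging 1 FPKM or more over all 6 libraries were tested with limma 3.58.1 in R 4.3.3 on log2(FPKM + 1), with empirical Bayes and a trend in mean expression. P-values were Benjamini-Hochberg adjusted over all of these genes, with a threshold of 0.05. The procedure was tested on simulated data in which a far smaller share of genes changed than was called here. That test therefore does not cover a comparison with changes this wide. Tables were made with pandas 2.3.3 (Python 3.11.15) and figures with matplotlib 3.10.9. The members, lists, motifs and tests were chosen with earlier results of these data known. Of the pathway lists, up to 4 genes each are named, those past the threshold by smallest p first and then those with the highest mean; others are stated as picked with their values known. For likeness, the 3 genes of at least 5 FPKM with the highest r are given, without predicted, unnamed or small RNA genes. RefSeq promoters (GRCm38.p6) were matched by symbol for 6 of the 10 genes; Tgfb3, Tgfbr3 and Skil had no entry in the table used, and that of Smad7 is not shown. Alternatives covered the pseudocount, the filter, library scaling, the variance prior, library weights, the replicate block, Xist as a covariate and leaving out each library.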

Additional observations from a re-analysis of the deposited data

How the results depend on the processing

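Library scaling and single libraries moved the results; the cause was not tested. With libraries scaled to the same total FPKM, 5396 genes were called higher and 839 lower, against 2642 and 2592 as deposited; leaving small RNA genes out of that total gave 6591 and 903. Among the 10 genes, 1 (Tgfbr2) stayed lower under each of these scalings, and 5 were higher without small RNA genes in the total, with Tgfbr1 at 0.276 (limma adjusted p = 0.034) and Tgfbr3 joining the 3 others. Of the 72 pathway genes, 16 and 22 were then higher and 17 and 18 lower; Zfyve9 turned to 0.115 and 0.147, and Sp1 (0.325) and Smad2 (0.293) turned without small RNA genes. A filter at a mean of 5 FPKM left 1 of the 10 genes higher, since Tgfb2 and Ltbp1 were no longer tested. Library weights gave 14 higher and 36 lower pathway genes, against 9 and 34, while calls over the whole table went up to 3542 higher and 3546 lower. Leaving out each library in turn gave 1 to 3 of the 10 genes higher and 4 to 5 lower, 8 to 10 pathway genes higher and 29 to 36 lower, and 1922 to 2597 genes higher and 1957 to 2610 lower over the whole table. Without WT replicate 2, 1 of the 10 (Tgfb2) was higher. Tgfb2, where tested, and Tgfbr2 kept their calls in all alternatives.

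The replicate numbers are shared by the groups. Deviations of same-numbered libraries correlated at 0.127, 0.122 and -0.00735, and those of different-numbered libraries at between -0.157 and 0.0619. All of these are weak, so the libraries were not taken as pairs, though the highest values are same-numbered. Whether same-numbered libraries share a batch is not known. With the replicate block, 3 of the 10 genes were higher and 5 lower, and 1889 genes were higher and 1909 lower over the whole table. Depth is unknown, so precision at the low levels of Tgfb2, Ltbp1 and Smad7 is known only from the spread of 3 libraries and the deposited intervals.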

Other observations

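Several pathway genes lay under the filter and were in no comparison; those given here were chosen after their values were seen. Dact2, which encodes an inhibitor known to act on TGF-beta family receptors in zebrafish, was at 2.34, 0.972 and 0.731 FPKM in mutant libraries, against 0.187, 0.275 and 0.344 FPKM in WT libraries. Lrrc32, whose product holds latent TGF-beta at the surface of some immune cells, was at 0.278, 0.169 and 0.108 FPKM in mutant libraries, against 0.0900, 0.0458 and 0.0783 FPKM in WT libraries. The collagenase gene Mmp13 was at 0.0177, 0.0177 and 0.0198 FPKM in mutant libraries, against 0.285, 0.156 and 0.267 FPKM in WT libraries. The secreted factor gene Angptl4 was at 0.694, 0.488 and 0.632 FPKM in mutant libraries, against 1.59, 1.20 and 0.942 FPKM in WT libraries. Foxh1, a SMAD partner, was listed at 0 in every WT library and at up to 0.113 FPKM in mutant libraries. The mutant and WT libraries did not overlap for any of these 5 genes, but their choice by value makes that no result. Of all genes tested, 56.0% did not overlap. Other pathway genes under the filter, such as Ltbp2, Nrros and Zeb2, did overlap. Emilin1, also under the filter, did not (0.419 to 0.883 FPKM in mutant libraries, 1.03 to 1.08 FPKM in WT libraries). None of the 5 was tested in the report.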
